A study of Mus musculus with 6 samples.

Results

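Interferon signalling starts at cell-surface receptors and is switched off again by inhibitors that the same signal induces. The 10 genes described here encode the chains of the type I receptor (Ifnar1 and Ifnar2), the chains of the type II receptor (Ifngr1 and Ifngr2), the JAK family of receptor-bound tyrosine kinases (Jak1, Jak2, Jak3 and Tyk2) and 2 suppressors of cytokine signalling (Socs1 and Socs3). They were taken as a fixed list of symbols, and all 10 were found among the 54752 genes of the count tables. RNA came from the right hippocampus of wild-type male C57BL/6 mice (C57BL/6 J in the study's methods) aged 14 weeks, 3 with a sham operation and 3 with bilateral carotid artery stenosis (BCAS), collected 3 weeks after surgery with 1 library per mouse. In BCAS mice a microcoil narrowed each common carotid artery, with the tighter coil on the right, the side that was sequenced, while sham mice had the same surgery without coils. Mice that died after the BCAS operation are not represented.

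Type I interferons (IFN-α and IFN-β) bring together Ifnar1, which carries Tyk2, and Ifnar2, which carries Jak1. Interferon-gamma, the type II interferon, binds Ifngr1, which carries Jak1, and then recruits Ifngr2, which carries Jak2. The kinases phosphorylate STAT factors, and these enter the nucleus and switch on interferon-regulated genes. Socs1 and Socs3 are among the genes induced by STATs, and their proteins block JAK activity, so they act as feedback inhibitors. Jak3 pairs with the common gamma chain of interleukin receptors instead and is known mainly from lymphocytes and myeloid cells. In the brain, microglia are the resident immune cells that respond to both kinds of interferon, although neurons and astrocytes also carry the receptors.

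The libraries held 29652456 to 35607098 counts. All values are counts scaled by edgeR's TMM method, given as CPM (counts per 1000000 scaled counts) for one gene across mice, or per kilobase of exon (RPKM) where genes are compared with each other. The 6 libraries differed in more than these genes. The 16 microglia markers summed to 469 to 498 CPM in the sham libraries, against 3333, 3648 and 5429 CPM in BCAS mice 1 to 3, and all 16 rose. The 13 hippocampal neuron markers summed to 8616 to 9003 CPM in the sham libraries, against 4557 to 6363 CPM after BCAS, with 10 of the 13 lower, and were thus present in every library of the labelled tissue. Of 8 astrocyte markers 7 rose, as did 4 of 6 markers of border macrophages (10.3 to 14.8 CPM summed in the sham libraries, 25.7 to 33.5 CPM after BCAS) and 5 of 8 endothelial markers (288 to 308 CPM against 376 to 425 CPM, with a median log2 fold change of 0.45). Of 8 monocyte and neutrophil markers, 4 could be tested and 3 rose (0.898 to 1.87 CPM against 6.06 to 13.1 CPM), and the neutrophil genes had few counts, with none of Ly6g in any library, 0, 4 and 0 counts of Cxcr2 in the sham libraries against 2, 20 and 15 after BCAS, 2, 4 and 9 of S100a8 against 5, 36 and 24, 8, 4 and 4 of Retnlg against 0, 16 and 4, and 14, 3 and 28 of S100a9 against 14, 40 and 44, of which S100a9 was tested and did not pass (log2 fold change 1.25, edgeR adjusted P = 0.202). The 5 choroid plexus markers varied widely within both groups, from 69.8 to 4078 CPM in the sham libraries and from 40.3 to 5918 CPM after BCAS, and 0 of them passed the test. Of 7 oligodendrocyte markers 0 passed, with sums of 4627 to 5558 CPM in the sham libraries and 5267 to 7825 CPM after BCAS. Among them, Mbp was called higher with DESeq2 (adjusted P = 0.0147) and without BCAS mouse 2 (edgeR adjusted P = 0.0361). It was also called higher when every gene with a count was tested (edgeR adjusted P = 0.0385). Over the alternatives other than a test against a log2 fold change of 1 (glmTreat), 7 to 11 neuron markers were called lower, while 6 to 8 astrocyte, 3 to 4 border macrophage and 4 to 7 endothelial markers were called higher. In whole tissue, fewer cells of a type and less RNA per cell cannot be told apart, and neither can more cells and more RNA per cell. The part of these markers in the results that follow was not tested.

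Most, but not all, of the receptor, kinase and SOCS genes were higher after BCAS. Of the 10 genes, 8 were higher in BCAS mice at an adjusted P under 0.05 (edgeR quasi-likelihood test, Benjamini-Hochberg over 18617 tested genes), whereas 18% of all tested genes were called higher and 13.2% lower. The 8 genes were Ifnar1, Ifnar2, Ifngr1, Jak2, Jak3, Tyk2, Socs1 and Socs3. When libraries were scaled by their totals alone, the calls over all genes moved from 3356 higher and 2463 lower to 3859 higher and 1788 lower, and the same number of members, 8, was higher. Of the 8, 5 were up-regulated differentially expressed genes (DEGs), which also needed an absolute log2 fold change above 1, against 8.47% of all tested genes (0.999% were down-regulated DEGs): Socs3, Jak3, Ifngr1, Ifnar2 and Socs1. In the other direction edgeR called 0 members, with 0 at an unadjusted P under 0.05, and DESeq2 and limma-voom also called 0. All BCAS mice lay above all sham mice for 8 members, against 25.3% of tested genes. In 7 of the 10 genes the highest BCAS mouse was mouse 3, the mouse with the most microglia marker RNA. With libraries scaled by their totals alone, mouse 3 was the highest for Socs1 and Ifngr2 as well. The share of all tested genes that were highest in mouse 3 is not given here. Among BCAS mice, mouse 3 also had the highest sums of oligodendrocyte, border macrophage, endothelial, and monocyte and neutrophil markers. The sums of T and NK cell markers and of B cell markers were highest in mouse 3 too. Mouse 3 had the lowest sum of neuron markers, while astrocyte and choroid plexus markers were highest in mouse 1. Without BCAS mouse 3, 6 members remained called higher and 4 were DEGs, and without sham mouse 2 these counts were also 6 and 4.

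**Figure D1:**
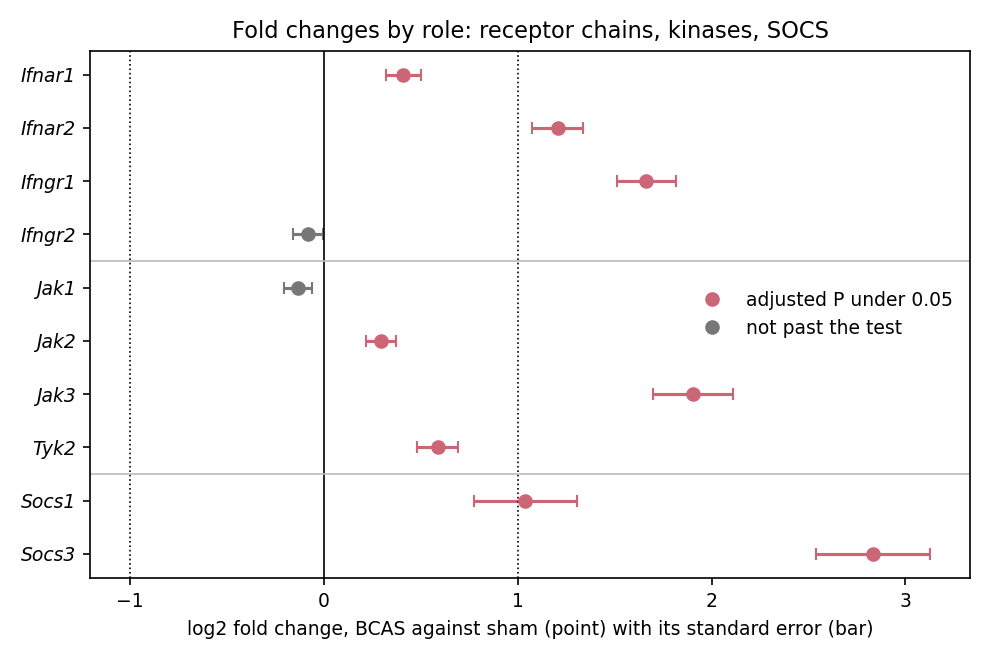
Log2 fold change of each gene in BCAS against sham mice, with its standard error as a bar, grouped from top to bottom into receptor chains, kinases and SOCS genes. Red points passed an adjusted P of 0.05, dotted lines mark a log2 fold change of 1 in either direction, and Socs3 (2.83) lies farthest from 0, while Ifngr2 (-0.08) and Jak1 (-0.13) did not pass.

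The 4 promoters below are shown because they hold the DNA letters that interferon-activated factors are known to bind. STAT dimers bind the gamma-activated site, searched as TTCNNNGAA, and the complex that holds Stat2 and Irf9 binds the interferon-stimulated response element, searched as GAAANNGAAA, both on either strand. The search covered the 300 bases around the start of each gene in RefSeq (250 before and 50 after, build GRCm38.p6), and all 10 genes had such a promoter. TTCNNNGAA stood in the promoters of Ifnar1, Ifnar2 and Socs3, and in 8.3% of 32851 promoters of the same length. GAAANNGAAA stood in that of Socs1, in 2 overlapping copies, and in 3.44% of all promoters. Each sequence runs 5′ to 3′ along its gene, with the matched letters in capitals.
Ifnar1: gggcgggggcgTTCACGGAAggggcggggc
Ifnar2: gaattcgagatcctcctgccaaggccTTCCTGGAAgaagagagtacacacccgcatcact
Socs1: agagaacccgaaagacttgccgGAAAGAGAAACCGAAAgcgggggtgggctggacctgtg
Socs3: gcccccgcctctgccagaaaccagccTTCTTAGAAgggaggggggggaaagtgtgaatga
The Ifnar1 sequence is at chr16:91485199-91485228 on the plus strand and spans the RefSeq start, with its match beginning 5 bases before it. The Ifnar2 sequence is at chr16:91372543-91372602 on the plus strand, and its match begins 214 bases before the start. The Socs1 sequence is at chr16:10785582-10785641 on the minus strand, upstream of the gene, with matches that begin 83 and 77 bases before the start. The Socs3 sequence is at chr11:117969487-117969546 on the minus strand, 154 bases before the RefSeq start at its match, and lies in an intron of a longer Socs3 transcript of GENCODE. The remaining 6 promoters held neither string. Of these genes, Ifngr1, Jak2, Jak3 and Tyk2 also rose, and Ifngr1 and Jak3 rose more than Ifnar1, Ifnar2 and Socs1. These matches describe the letters only and say nothing about which factor was bound in these mice.

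The chains of the type I receptor rose unequally. Ifnar2 (ENSMUSG00000022971.18) is the chain that binds interferon with high affinity, and it lies on chromosome 16 from 91372783 to 91405589 in mm10. Sham mice 1 to 3 had 15.2, 15.0 and 15.3 CPM and BCAS mice 1 to 3 had 31.4, 31.2 and 42.3 CPM, from 500 to 1319 counts. Sham mice were nearly identical and every BCAS mouse stood well above them, with mouse 3 apart from the other two. The log2 fold change was 1.21 (standard error 0.13), a 2.31-fold rise (edgeR adjusted P = 2.66e-04). Ifnar1 (ENSMUSG00000022967.13), the chain that completes the receptor, lies downstream on the same chromosome from 91485238 to 91507441. It had 46.9, 48.9 and 47.0 CPM in sham mice and 56.9, 62.5 and 70.3 CPM in BCAS mice. The groups did not overlap here either, but the rise was smaller, at 1.33-fold (log2 fold change 0.41, standard error 0.09, edgeR adjusted P = 0.00890).

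In the type II receptor, the ligand-binding chain rose and its partner did not pass the test. Ifngr1 (ENSMUSG00000020009.13; chromosome 10, 19591949 to 19610229) had 14.2, 15.0 and 14.3 CPM in sham mice and 36.1, 45.4 and 56.2 CPM in BCAS mice. The lowest BCAS mouse had more than any sham mouse, and the log2 fold change was 1.66 (standard error 0.15, edgeR adjusted P = 1.07e-04), a 3.16-fold rise. Ifngr2 (ENSMUSG00000022965.8; chromosome 16, 91547072 to 91565623), the signalling partner that brings Jak2, had 70.4, 68.5 and 79.5 CPM in sham mice against 67.6, 70.1 and 68.8 CPM in BCAS mice. These ranges overlapped, and the log2 fold change of -0.08 was about the size of its standard error of 0.08 (edgeR adjusted P = 0.466). Over all alternatives the log2 fold change of Ifngr2 stayed between -0.13 and -0.0043.

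**Figure D2:**
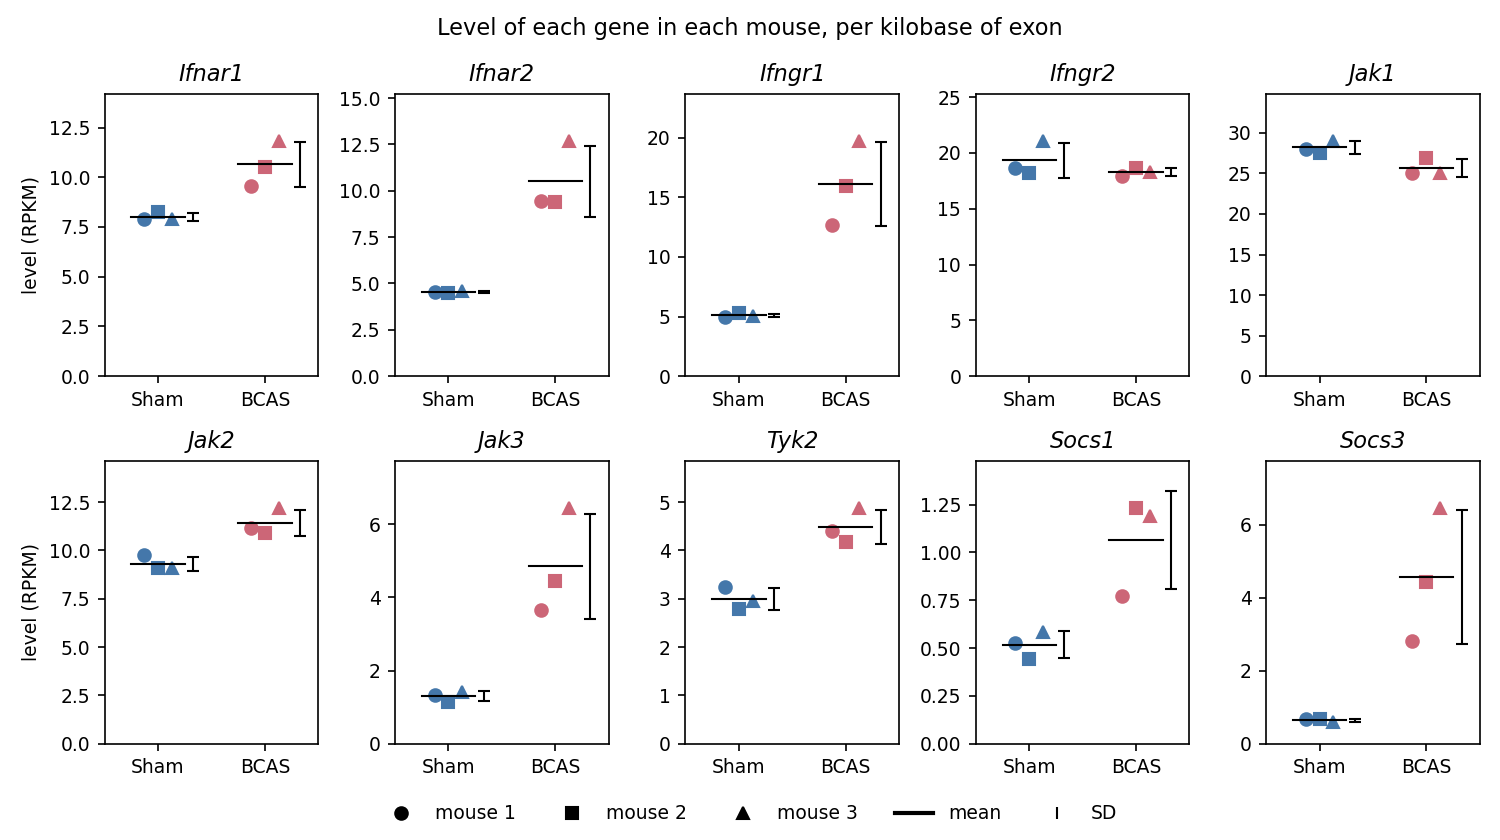
Level of each of the 10 genes in each mouse, in CPM per kilobase of exon (RPKM, linear axes from 0), with sham mice in blue and BCAS mice in red. Symbols mark mouse numbers within a group, horizontal lines the means and bars the SD of 3 mice. The groups are separate in every panel except Ifngr2, and Jak1 is the panel in which BCAS mice are lower.

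Read within each mouse, which removes any scaling between libraries, the chains of each receptor were nearer to equal levels per kilobase in BCAS than in sham mice. Sham mice had an Ifnar2 to Ifnar1 ratio of 0.568 ± 0.0199 (SD, n = 3), and BCAS mice one of 0.983 ± 0.0903 (SD, n = 3). The sham values ran from 0.546 to 0.582 and the BCAS values from 0.892 to 1.07, so the groups were apart by more than their spread. For Ifngr1 to Ifngr2, sham mice had 0.265 ± 0.0252 (SD, n = 3), whereas BCAS mice had 0.881 ± 0.188 (SD, n = 3). The BCAS values of this ratio ran from 0.707 in mouse 1 to 1.08 in mouse 3, the one value above 1. On the log2 scale the ratio moved by 0.79 for the type I and by 1.72 for the type II chains, and neither left the range of 0.72 to 0.85 or of 1.56 to 1.87 with any mouse left out. In sham mice the scarcer chain was Ifnar2 in one receptor and Ifngr1 in the other, and in both it was the scarcer chain that rose more. Between the receptors, Ifngr1 was 0.636 ± 0.00321 times the level of Ifnar1 in sham mice and 1.50 ± 0.172 times in BCAS mice (SD, n = 3 each). These ratios give transcripts and not receptors at the surface, and since they depend on the exonic lengths assigned to the genes, their change between groups is firmer than their absolute value.

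The JAK kinases ranged from a fall that did not pass the test to a rise of 3.74-fold. Jak1 (ENSMUSG00000028530.14; chromosome 4, 101152367 to 101265282), used by both interferon receptors and most other cytokine receptors of this family, was the most abundant, with 202, 199 and 210 CPM in sham mice and 181, 195 and 181 CPM in BCAS mice. All BCAS mice lay below all sham mice, as in 22.7% of tested genes, but the log2 fold change of -0.13 (standard error 0.07) did not pass (edgeR adjusted P = 0.182), and the groups overlapped when libraries were scaled by their totals alone. Jak2 (ENSMUSG00000024789.12; chromosome 19, 29251828 to 29313080), the kinase of Ifngr2, had 49.0, 45.7 and 45.8 CPM in sham mice and 56.2, 54.9 and 61.3 CPM in BCAS mice. Its log2 fold change was 0.29 (standard error 0.08, edgeR adjusted P = 0.0184). The call of Jak2 was lost without sham mouse 2 (adjusted P = 0.0821), sham mouse 3 (0.0747) or BCAS mouse 3 (0.0512).

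Tyk2 (ENSMUSG00000032175.11; chromosome 9, 21104068 to 21131243), the kinase carried by Ifnar1, had 22.2, 19.2 and 20.2 CPM in sham mice and 30.3, 28.6 and 33.5 CPM in BCAS mice. The rise was 1.50-fold (log2 fold change 0.59, standard error 0.10, edgeR adjusted P = 0.00345) and passed with each mouse left out in turn. Jak3 (ENSMUSG00000031805.17; chromosome 8, 71676296 to 71690575) had 7.11, 6.17 and 7.55 CPM in sham mice and 19.5, 23.8 and 34.5 CPM in BCAS mice. Every BCAS mouse was far above the sham range, and the 3 BCAS mice also differed among themselves in the order of their microglia marker sums. The sums of border macrophage markers and of monocyte and neutrophil markers had this order too, as did Ifnar1, Ifngr1 and Socs3 among the members. The log2 fold change of Jak3 was 1.90 (standard error 0.21, edgeR adjusted P = 2.46e-04), and only 4.39% of tested genes rose more. Of 12 markers of T and NK cells, which are known to use Jak3, 9 could be tested and 7 rose. They summed to 2.24 to 3.32 CPM in the sham libraries and to 12.1, 11.3 and 13.2 CPM in BCAS mice 1 to 3. Of 5 B cell markers, 3 could be tested and 1 rose. These summed to 0.875 to 1.44 CPM in the sham libraries against 1.99 to 3.24 CPM after BCAS.

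The makeup of the kinase pool differed between the groups. Per kilobase, Jak1 made up 67.5% ± 1.12 of the summed JAK level in sham mice and 55.4% ± 3.35 in BCAS mice (SD, n = 3 each). Jak3 went from 3.10% ± 0.242 to 10.4% ± 2.60 and reached 13.3% in BCAS mouse 3. Tyk2 moved from 7.15% ± 0.426 to 9.66% ± 0.589 and Jak2 from 22.3% ± 0.803 to 24.6% ± 0.970. The sum of the kinases was 41.8 ± 1.07 RPKM in sham mice and 46.5 ± 2.13 RPKM in BCAS mice, so the total differed by a smaller factor than the share of Jak3.

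**Figure D3:**
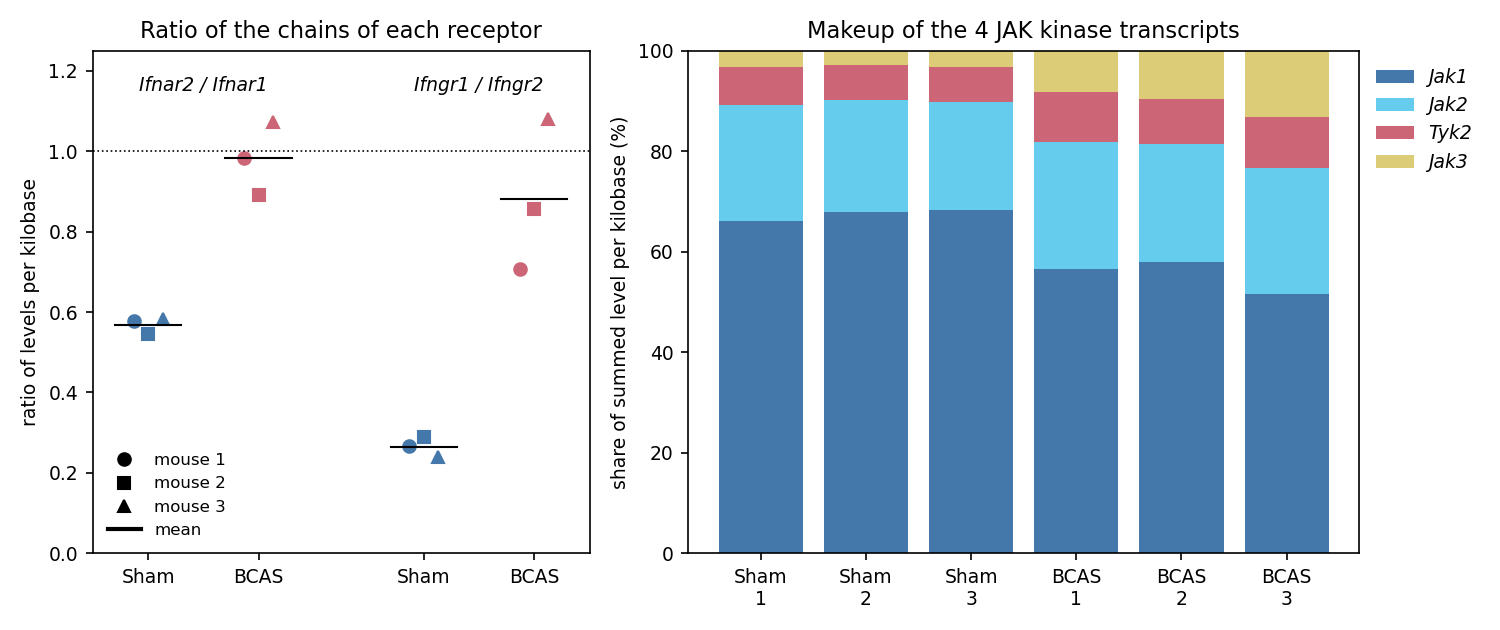
Left, ratio of the levels per kilobase of the chains of each interferon receptor in each mouse (symbols) with group means (lines), sham in blue and BCAS in red; the dotted line marks equal levels, and the BCAS means lie at 0.983 and 0.881. Right, share of each kinase in the summed level of the 4 JAK genes per kilobase in each mouse, in percent, where the Jak3 segment takes 2.84% to 3.32% of the sham bars and 8.24% to 13.3% of the BCAS bars.

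The feedback inhibitors were the scarcest of the 10 transcripts in sham mice, and Socs3 had the largest rise among the members. Socs3 (ENSMUSG00000053113.3; chromosome 11, 117966079 to 117970047), a known inhibitor of signals through gp130 receptors as well, had 66, 64 and 58 counts in the sham libraries against 264, 387 and 582 after BCAS. This equals 1.95, 1.92 and 1.69 CPM against 8.13, 12.8 and 18.7 CPM, with BCAS mouse 3 again the highest and BCAS mouse 1 the lowest of its group. The log2 fold change was 2.83 (standard error 0.29, edgeR adjusted P = 1.94e-04), or 7.12-fold. Socs1 (ENSMUSG00000038037.5; chromosome 16, 10782240 to 10785536), the inhibitor most tied to interferon-gamma, had only 52, 43 and 58 counts in the sham libraries against 73, 108 and 108 after BCAS, or 1.53, 1.29 and 1.69 against 2.25, 3.58 and 3.46 CPM. The groups were separate but close, with BCAS mouse 1 just above the sham range. Its log2 fold change was 1.04 (standard error 0.26, edgeR adjusted P = 0.0175). The call of Socs1 was lost without sham mouse 1 (adjusted P = 0.0575), sham mouse 2 (0.0641) or BCAS mouse 3 (0.0541). Its log2 fold change lay near the DEG threshold of 1. It fell to 0.94 without sham mouse 2, to 0.91 without BCAS mouse 2 and to 0.95 without BCAS mouse 3.

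Per kilobase, Socs3 and Socs1 were near each other in sham mice and far apart in BCAS mice. Within a mouse, Socs3 stood at 1.26 ± 0.246 times Socs1 in the sham group and at 4.22 ± 1.04 times after BCAS (SD, n = 3 each), with ranges of 1.01 to 1.50 and 3.60 to 5.42. In the promoter windows, Socs1 held GAAANNGAAA and Socs3 held TTCNNNGAA, which Ifnar1 and Ifnar2 held too. Any part of these letters in the difference between Socs3 and Socs1 was not tested.

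Ordered by level per kilobase in sham mice, the genes were Jak1 (28.2 RPKM), Ifngr2 (19.3), Jak2 (9.32), Ifnar1 (8.01), Ifngr1 (5.09), Ifnar2 (4.55), Tyk2 (2.99), Jak3 (1.30), Socs3 (0.640) and Socs1 (0.517). No neighbours in this order had overlapping ranges over the 3 sham mice. In BCAS mice the order was Jak1 (25.7 RPKM), Ifngr2 (18.3), Ifngr1 (16.1), Jak2 (11.4), Ifnar1 (10.6), Ifnar2 (10.5), Jak3 (4.85), Socs3 (4.57), Tyk2 (4.49) and Socs1 (1.06). There the ranges of Ifngr2 and Ifngr1, of Jak2 and Ifnar1, of Ifnar1 and Ifnar2, of Jak3 and Socs3, and of Socs3 and Tyk2 overlapped, so these neighbours did not differ beyond their spread. Ifngr1 thus stood below Jak2 and Ifnar1 in sham mice and above both in BCAS mice, with no overlap of ranges in either group. Jak1 came first and Socs1 last in both groups. For 4 genes the level per kilobase leaves out some reads, since 4 of the 7227 exonic bases of Jak1, 315 of the 3329 exonic bases of Ifnar2, 404 of 5352 of Jak3 and 554 of 6865 of Tyk2 also belong to another annotated gene and reads on shared bases were assigned to neither.

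Of the 4 receptor chains, 3 lie side by side on chromosome 16 together with Il10rb, a chain shared by the receptors for IL-10 and type III interferon. In their order along the plus strand, the log2 fold changes were 1.21 for Ifnar2, 1.62 for Il10rb (standard error 0.20, edgeR adjusted P = 5.42e-04), 0.41 for Ifnar1 and -0.08 for Ifngr2. Il10rb begins 575 bases after the end of Ifnar2 and had 7.11, 7.96 and 5.36 CPM in sham mice and 18.3, 17.8 and 26.6 CPM in BCAS mice. The rise was thus seen in the first pair, weaker in Ifnar1 and not detected in Ifngr2. Among 9 genes on either side of the cluster, the oligodendrocyte lineage genes Olig1 (0.09) and Olig2 (0.06) did not pass, nor did Dnajc28, Gart, Son, Donson and Itsn1. Son (0.22) was called higher when libraries were scaled by their totals alone (0.30, edgeR adjusted P = 0.0367) and without BCAS mouse 2 (edgeR adjusted P = 0.0384). Tmem50b (-0.29, edgeR adjusted P = 0.0304) and Cryzl1 (-0.28, edgeR adjusted P = 0.0216) were called lower, but both calls were lost when libraries were scaled by their totals alone, with the replicate number as a block, and with the removal of any sham mouse or of BCAS mouse 3.

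**Figure D4:**
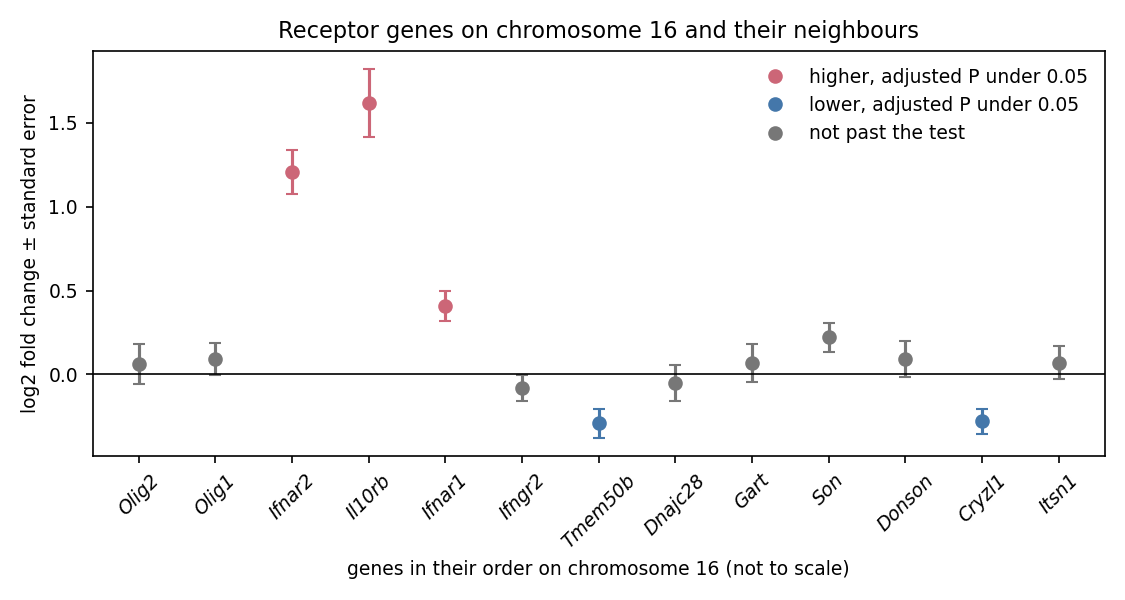
Log2 fold change with its standard error for 13 genes in their order on chromosome 16, spaced evenly and not to scale. The receptor genes Ifnar2, Il10rb and Ifnar1 stand above 0 in red, Ifngr2 and most neighbours lie near 0, and Tmem50b and Cryzl1 in blue are below it.

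The ligands themselves were at the limit of detection. Of 21 genes for type I, II and III interferons, 17 had 0 counts in all libraries and none exceeded 2 counts in any. Sham libraries held no count of them at all, and BCAS libraries held 2 counts each of Ifnb1 (mouse 3), Ifnk (mouse 1) and Ifnz (mouse 3) and 2 counts of Ifng in each of mice 1 and 2. The mates of a read pair were counted separately, so that a count of 0 still allows up to 6 counts (3 pairs), or 0.175 to 0.199 CPM per library, for counting error alone, and a difference was not detectable at this depth. Reads that align equally well to several genes of the similar IFN-α family were not counted at all.

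Downstream of the kinases, the STAT genes measured here and Irf9, a DNA-binding partner of Stat2, were called higher. Of 7 genes, Stat4 was too low to test and the other 6 were called higher, 4 of them as DEGs, with a median log2 fold change of 1.38, while the median over all tested genes was 0.018. Irf9 rose from 9.68 ± 0.274 to 36.1 ± 8.05 CPM (SD, n = 3 each; log2 fold change 1.90, edgeR adjusted P = 5.99e-05), and Stat6, the main factor of interleukin-4, from 10.4 ± 0.953 to 34.2 ± 11.6 CPM (1.72, edgeR adjusted P = 5.62e-04). Stat5a (1.77) and Stat3 (1.04), the factor through which gp130 receptors induce Socs3, were the other DEGs. Stat2 (0.93) and Stat5b (0.74) were called higher below the DEG threshold.

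Among the inhibitors, the rise was found in some genes and not across the group. Over the 6 other SOCS family genes the median log2 fold change was -0.0042. Of these, 1 was called higher and 1 lower, near the shares over all tested genes (18% higher and 13.2% lower). Socs5 fell from 171 ± 3.40 to 134 ± 11.9 CPM (SD, n = 3 each; log2 fold change -0.35, edgeR adjusted P = 0.0115), and Socs6 rose from 22.9 ± 1.65 to 31.6 ± 3.94 CPM (0.46, edgeR adjusted P = 0.0151). The call of Socs6 was lost without sham mouse 1 or sham mouse 2 (adjusted P of 0.0653 and 0.0577). Socs2, Socs4, Socs7 and Cish did not pass, although Socs7 was called lower without BCAS mouse 2. Of 11 other inhibitors of JAK and STAT signalling, 5 were called higher, with a median of 0.13 over all 11. The largest rises were those of Ptprc (3.96), a phosphatase found on all leukocytes, Usp18 (3.64), an interferon-induced protein that binds Ifnar2 and blocks its signal, and Ptpn6 (3.57), a phosphatase of blood cells and microglia. Usp18 had 0.767, 0.928 and 1.20 CPM in sham mice and 8.06, 9.95 and 18.1 CPM in BCAS mice (edgeR adjusted P = 1.22e-04), so the inhibitor of the type I receptor rose by a larger factor than either of its chains. Ptpn1 (0.45) and Sh2b3 (0.72) rose less, and the call of Ptpn1 was lost without sham mouse 1 (adjusted P = 0.0620). Ptpn2, Ptpn11 and the 4 Pias genes, which are expressed in most cells, did not pass. Pias2 (-0.20, edgeR adjusted P = 0.0514), with all BCAS mice below all sham mice, was called lower with DESeq2 (adjusted P = 0.0482), with RLE scaling in edgeR (0.0365) and without BCAS mouse 1 (0.0452).

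Many, but not all, tested genes for other receptors that signal through the same kinases were called higher, as were 18% of all tested genes. In the common gamma chain family, which holds the common chain that carries Jak3 and the chains that join it, 6 of 7 tested genes were higher, with a median log2 fold change of 2.18. The common chain Il2rg had 28, 9 and 15 counts in sham mice and 90, 90 and 136 in BCAS mice (2.71, standard error 0.41, edgeR adjusted P = 0.00148), and the receptor of IL-21, Il21r, rose by 3.09. The call of Il7r, another chain of this family, was lost without sham mouse 2, sham mouse 3 or BCAS mouse 3 and with the replicate number as a block. That of Il15ra (0.67, edgeR adjusted P = 0.0270) was lost without sham mouse 2 (0.0805), sham mouse 3 (0.0956), BCAS mouse 1 (0.0793) or BCAS mouse 3 (0.0622). Among receptors of the gp130 type, in a list that holds gp130 itself with its partners and the related receptors for IL-12, IL-23 and leptin, 6 of 11 tested genes were higher, among them the shared chain Il6st (1.09), the oncostatin M receptor Osmr (2.71) and the granulocyte factor receptor Csf3r (3.77), whereas Lifr (-0.08), Cntfr (0.02), Il27ra, Il12rb1 and Il12rb2 did not pass. The 6 include the leptin receptor Lepr (1.09, edgeR adjusted P = 0.0407), whose groups overlapped and whose call was lost with limma-voom (0.0828), with the replicate block and with the removal of any mouse except BCAS mouse 2. In a group of common beta chain, hormone and related receptors, many of which use Jak2, 7 of 9 tested genes were higher, led by Csf2rb (3.98). The call of the growth hormone receptor Ghr (0.46) was lost with the replicate block (edgeR adjusted P = 0.0518) and with the removal of any mouse except BCAS mouse 2. Of the IL-10 and type III interferon receptor chains, Il10ra (2.96) and Il10rb were higher among 4 tested genes, and Ifnlr1, the chain specific to type III interferon, had 0.652 CPM in sham mice and 0.498 CPM in BCAS mice (edgeR adjusted P = 0.611). The fourth, Il20rb, a chain of the receptors for IL-20 and IL-24, had 3.81, 3.41 and 2.94 CPM in sham mice against 2.62, 1.79 and 1.80 CPM in BCAS mice. Its groups did not overlap, and its log2 fold change of -0.71 lay just outside the threshold (edgeR adjusted P = 0.0504), while it was called lower with DESeq2 (0.0387), limma-voom (0.0473), RLE scaling (0.0453) and halved counts (0.0463) and without BCAS mouse 1 (0.0280).

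**Figure D5:**
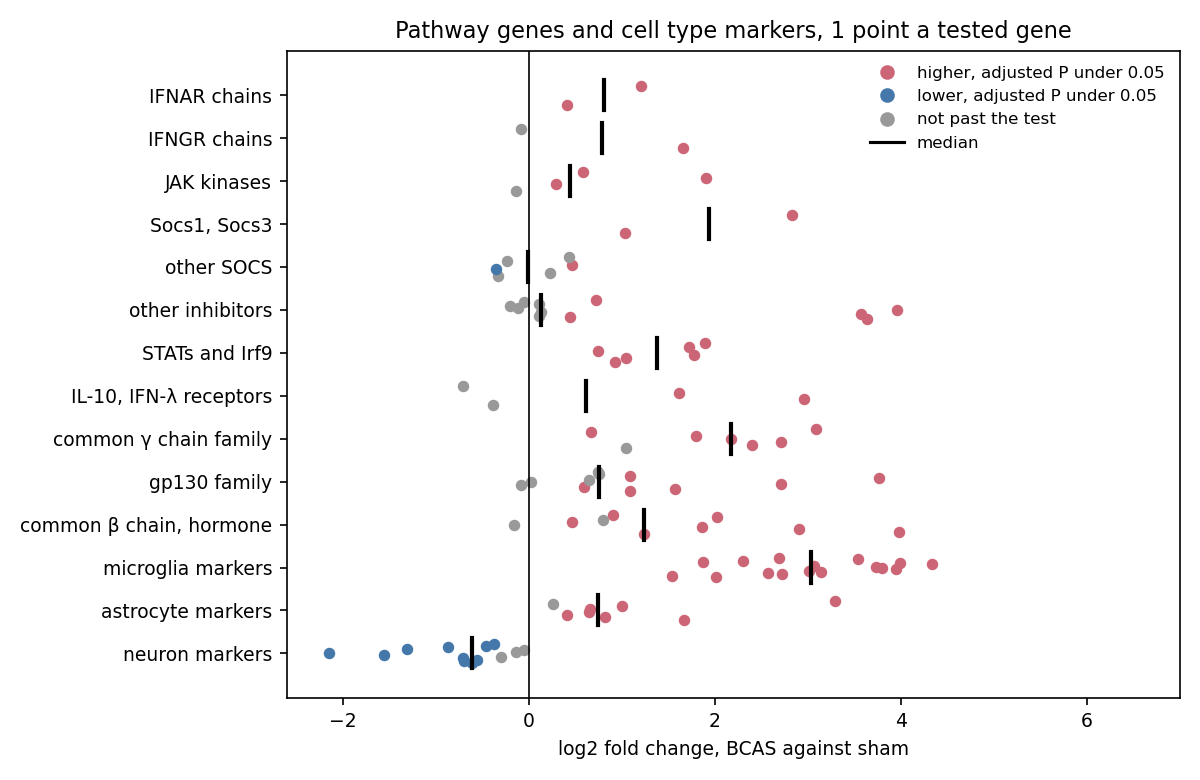
Log2 fold changes in BCAS against sham mice for the tested genes of each list, 1 point a gene, with list medians as black lines; red points were called higher, blue points lower and grey points neither. All 16 microglia markers are red with a median of 3.04, the list medians of the interferon receptor chains and kinases lie between that and 0, and the neuron markers lie to the left with a median of -0.61.

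The genes whose levels over the 6 libraries lay nearest to those of the DEGs were found by the distance between mean-centred log2 CPM among 15630 other genes with at least 1 CPM. Nearest to Ifnar2 were Vasp (distance 0.077), Gng5 (0.099) and Tap2 (0.105), of which Tap2 is a peptide transporter of antigen presentation. Ifngr1 was nearest to Fli1 (0.131), Ctsa (0.187) and Amz1 (0.194), and Jak3 to Ehd4 (0.173), Rab3il1 (0.173) and Lrrc3 (0.180). Socs3 was nearest to the immunoproteasome subunit gene Psmb8 (0.244), then to Lcp2 (0.290) and Lpxn (0.292), both adaptors of blood cells. Socs1 was nearest to Anpep (0.183), B3gnt5 (0.212) and Tnfsf12 (0.252). With 2 groups and 6 libraries, a short distance means a rise of similar size and a similar order of the mice.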

How the data were processed

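RNA-seq libraries of 3 sham and 3 BCAS mice were grouped by their titles. The authors trimmed reads with Trim Galore, aligned them to mm10 with HISAT2 and deposited raw counts per gene, without normalization. The submitters' processing notes name featureCounts 1.6.3, while the file headers name 2.0.3 with GENCODE M20, mates counted separately, strand ignored and reads aligned to several places not counted. Unstranded counting cannot separate genes that overlap on opposite strands. Symbols came from a GENCODE table and matched 54723 of 54752 identifiers.

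Counts were filtered with filterByExpr, normalized by TMM and tested with edgeR 4.0.16 (quasi-likelihood, no covariate; limma 3.58.1 and DESeq2 1.42.0 as alternatives, R 4.3.3). Standard errors are the log2 fold change divided by the root of its F statistic. With 3 mice a group, the smallest P of an exact two-sided permutation test is 0.1, and adjusted P values therefore come from the model. Whether mice shared a litter or batch is not given in the sources used here. Log2 CPM used a prior count of 2. Named genes are the members, up to 4 of the largest changes of a list, genes named to complete a short list, cluster neighbours and the 3 nearest genes of each DEG. The members and lists were chosen with earlier results of these data known. Lists got no set test. The values of 1 listed gene are not reported here, and its list was counted without it. Alternatives were other tools, scalings and filters, halved counts, glmTreat, a replicate block and leaving out each mouse. The steps were tested on simulated data.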

Additional observations from a re-analysis of the deposited data

How the results depend on the processing

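The directions of all 10 genes held under all 15 alternatives. Against a log2 fold change of 1 (glmTreat), 3 members were higher and 3 were DEGs, namely Ifngr1, Jak3 and Socs3. Leaving out each mouse gave 6 to 8 members higher, 0 lower and 4 to 5 DEGs, a shift of the log2 ratio of 0.72 to 0.85 for Ifnar2 to Ifnar1 and of 1.56 to 1.87 for Ifngr1 to Ifngr2. Apart from glmTreat, 6 members passed under every alternative, and the exceptions were Jak2 and Socs1. With the replicate number as a block, 8 members were higher, 0 lower and 5 DEGs, and over all genes 2782 were higher and 1750 lower. The numbers do not pair the mice: same-numbered libraries correlated at 0.036, -0.31 and -0.16 in their deviations from the group means, and 1 of 3 sham and 0 of 3 BCAS libraries correlated best with their own number. Over all genes, glmTreat called 804 higher and 14 lower against 3356 and 2463 with the main test, and without sham mouse 3 there were 2522 higher and 1260 lower. Socs1 had only 43 to 108 counts, and with counts halved the Socs1 log2 fold change was 1.03 and still passed (adjusted P = 0.0169). The interferon genes were at the limit of detection at this depth, and whether they were expressed below it was not tested.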
